A study of Mus musculus with 4 samples.

Results

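The 41 genes described here encode interleukin and cytokine receptors: the class I receptors of the IL-2, IL-3, IL-6, IL-12, growth hormone and leptin kinds, the class II chains of the IL-10 kind, and the IL-1 and IL-17 receptor families. They were chosen by name, and a probe belonged to them where its RefSeq accession matched one of the genes. All 41 had at least 1 probe (59 probes in all) among the 20140 genes that could be named on the arrays. The 4 samples were AB1-HA cells with vehicle, AB1-HA cells with interferon gamma (IFN-γ), LLC cells with vehicle and LLC cells with IFN-γ, all harvested at 24 h and hybridised in a single colour to Agilent mouse arrays of 1 slide. The AB1-HA cells come from a mesothelioma of BALB/c mice and, as background, express a viral hemagglutinin. The LLC cells (3LL in the sample titles) come from a lung carcinoma, the Lewis tumor, of strain C57BL6. Each of the 4 groups was 1 array, so differences were not tested and p-values are absent. The labels do not say whether cultures were pooled. The number of arrays limits the precision, and a lower signal may mean fewer expressing cells or less RNA per cell, which cannot be told apart in bulk RNA.

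Cytokine receptors are built from chains that bind the cytokine and chains that signal, and many cytokines need both. Class I and class II chains carry Janus kinases that phosphorylate STAT proteins, whereas IL-1 and IL-17 family receptors recruit adaptor proteins that lead to NF-κB and MAP kinases. In tumor cells such receptors decide which signals from T cells, macrophages and stroma can be received, and IFN-γ itself acts through a class II receptor and STAT proteins.

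Values are background-subtracted processed signals in intensity units. Differences are log2 differences after each array was scaled to its own 75th percentile, so folds of raw signals deviate slightly from them. Calls of higher or lower are made from 2-fold on, which is a size and not a significance. Where 4 signals stand in a row, they are those of the AB1-HA vehicle, AB1-HA IFN-γ, LLC vehicle and LLC IFN-γ arrays. The scanner software gives each spot an error, and its combination over the 2 spots compared follows each ± below. It was 0.20 for bright spots and rose to 0.73 for Il17re in LLC, and it covers spot error only. Probes with repeat spots had a median SD of the IFN-γ difference of 0.22 in both lines at signals under 50, against 0.06 in AB1-HA and 0.03 in LLC at 500 or more. Detection means that the scanner marked the spot as well above background, which began at signals of 7.53 to 8.26. Signals of different probes are not comparable with each other.

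Marker genes were checked against the labels. Of 11 leukocyte markers, 3 were detected in both lines (Cd3e, Itgam and Csf1r), with summed signals over the list of 4273 and 4598 in AB1-HA and 3706 and 4091 in LLC, while those not detected on any array included Ptprc, Cd79a, Adgre1, Ncr1, Spi1, Laptm5 and Tyrobp. Of 10 mesothelial markers, Msln was at 50299, 38827, 154 and 50.1, and Pdpn and Krt19 were higher in AB1-HA than in LLC as well (Krt19 by 3.22-fold with vehicle, Pdpn at 8991, 9458, 6.48 and 9.44). Read as mesothelial markers, Krt8 and Krt18 went against the label of AB1-HA, being 172-fold and 485-fold higher in LLC with vehicle. Wt1, Upk3b, Lrrn4, Calb2 and Gpm6a were not detected in AB1-HA. Of 8 lung epithelial markers, Sftpa1, Sftpb, Sftpc, Nkx2-1, Epcam and Cdh1 were not detected in either line, which left Napsa and Scgb1a1. The list summed to 359 and 403 in AB1-HA and to 49.7 and 62.8 in LLC. Napsa was 29.8-fold lower in the lung carcinoma line with vehicle, which goes against its label, and Scgb1a1 was within 2-fold. With IFN-γ, 1 of these markers was higher in LLC (1.17 log2) and 1 lower (a bound), so they did not go the same way. All 8 mesenchymal markers were detected in AB1-HA and on the LLC vehicle array.

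Most of the receptor transcripts were present in both lines. On the AB1-HA arrays 26 of 41 receptor genes were detected with vehicle and 26 with IFN-γ, against 64.1% and 64.9% of all named genes. In LLC 29 were detected on each array, against 65.5% and 65.3%. The receptors' shares (63.4% in AB1-HA and 70.7% in LLC) thus lay near those of all genes. Of the 41, 25 were detected on all 4 arrays, as were 11985 of the 20140 named genes, a similar share. A further 4 were detected in LLC alone (Il1r2, Il4ra, Lifr and Il17re, by the probe used), 1 in AB1-HA alone (Il2rg), and 11 on no array. The all-gene shares for detection in a single line or on no array were not computed, so these counts do not set the receptors apart. By the probe used, no receptor gene passed between detected and not detected on IFN-γ treatment. The other probes of Il1rap and Csf2rb did so in AB1-HA. Such a change was uncommon among all genes as well. Of those with a value, 508 of 13208 in AB1-HA and 508 of 13392 in LLC were detected on a single array of the pair. The lack of a change thus does not set the receptors apart.

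**Figure D1:**
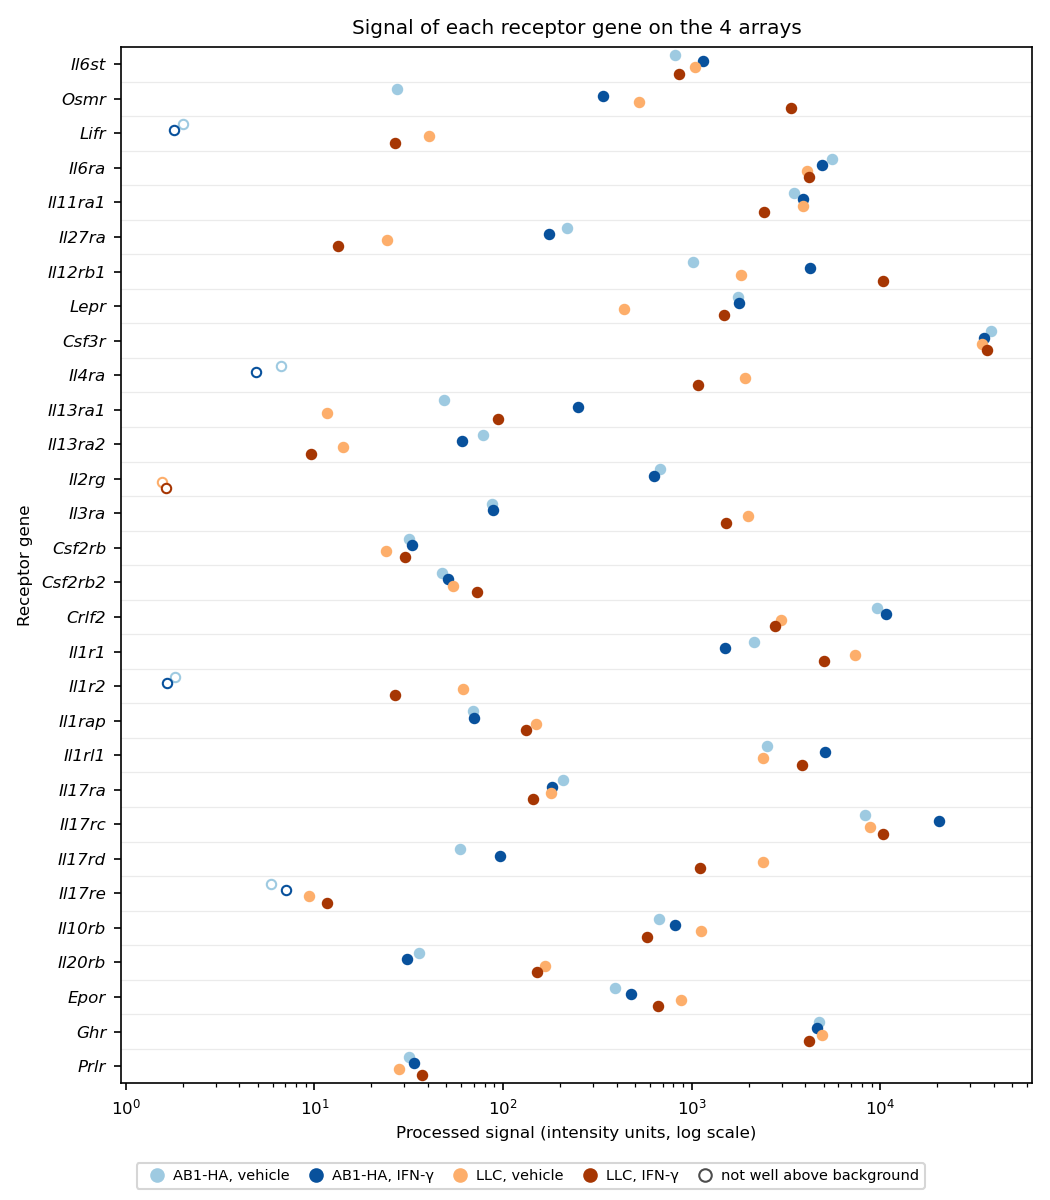
Processed signal (intensity units, log scale) of the 30 receptor genes detected on at least 1 array, a point per array and open where not well above background. Osmr, Il12rb1 and Il13ra1 are shifted to the right on the IFN-γ array of both lines, and Il2rg, Il4ra, Il1r2 and Lifr lie near background in a single line.

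The 11 receptor genes without a detected probe were Il2ra, Il7r, Il10ra, Il17rb, Il18r1, Il20ra, Il21r, Il22ra1, Il31ra, Cntfr and Csf2ra. Their signals lay between 1.48 and 8.27 over the 4 arrays. They include chains that give a receptor its specificity: Il10ra binds IL-10, Il22ra1 IL-22, Il7r IL-7, Il21r IL-21 and Csf2ra GM-CSF. A transcript not marked by the scanner is not shown to be absent.

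Read as receptor complexes, transcripts of every subunit were detected for 9 of 27 receptors in AB1-HA and 12 of 27 in LLC, with the same counts on the vehicle and IFN-γ arrays. The list of 27 was drawn up from textbook knowledge after the values were known. It leaves out Csf3r, Epor, Ghr, Prlr and Lepr, each detected on all 4 arrays by the probe used. Of all single genes, 64.1% to 65.5% were detected per array. The share of complete sets among all genes was not computed, so the counts are not set apart from it. The 9 complete in both lines were those of IL-1, IL-33, IL-3, IL-6, IL-11, oncostatin M, IL-27, IL-12 and IL-17A. LLC alone had all parts for LIF (Lifr with the shared chain Il6st), for IL-17C (Il17re with Il17ra) and for the type II receptor of IL-4 and IL-13 (Il4ra with Il13ra1). The AB1-HA call for the last of these rests on the probe used for Il4ra. With any detected probe of a gene accepted, AB1-HA had 11 complete receptors, both IL-4 receptors added. Other calls rest on the probe used as well. The other Il1rap probe (IL-1, IL-33) was not detected on the AB1-HA IFN-γ array. The second Csf2rb probe (IL-3) was detected on that array alone, and the other Lifr probes (LIF) on none. For the IL-2, IL-7 and IL-21 receptors no subunit was detected in LLC, whereas AB1-HA had their shared chain Il2rg alone. Detection is a low bar: at signals of at least 10 times the lowest detected one, 4 and 5 receptors were complete in AB1-HA (vehicle, IFN-γ) and 6 and 7 in LLC, an alternative added after the data were seen.

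**Figure D2:**
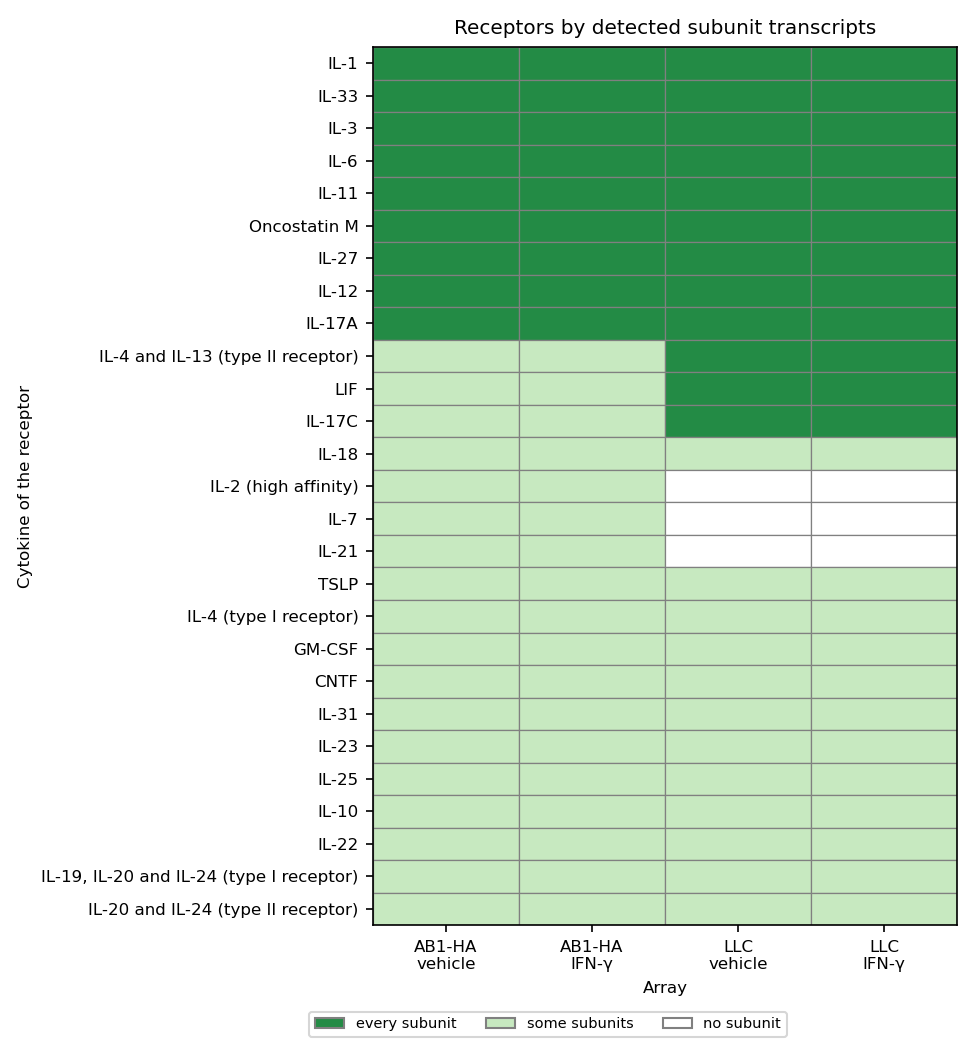
Receptors of 27 cytokines or cytokine groups (rows) on the 4 arrays (columns), coloured by whether every, some or no subunit transcript was well above background. The top 9 rows are complete in both lines and the next 3 in LLC alone.

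IFN-γ left most of the receptors within 2-fold in AB1-HA. The IFN-γ array was past 2-fold on the higher side for 4 of 26 measured receptor genes (15.4%), where 2.98% of the 13208 genes with a value were. Not 1 of the 26 was at least 2-fold lower, where 1.17% of all genes were. The 4 were Osmr, Il13ra1, Il12rb1 and Il17rc, and the median over the receptors was 0.04 against −0.08 over all genes. In LLC 4 of 29 were at least 2-fold higher (13.8%, against 3.58% of 13392 genes) and 1 was lower (3.45%, against 1.36%). These were Il13ra1, Osmr, Il12rb1 and Lepr on the higher side and Il1r2 on the lower, with a median of 0.01 against −0.06 over all genes. Osmr, Il12rb1 and Il13ra1 were thus higher in both lines. The median size of the difference, whatever its sign, was 0.24 over the receptors and 0.17 over all genes in AB1-HA, and 0.50 and 0.21 in LLC. Scaling each array to its median in place of the 75th percentile lowered all LLC differences, which moved the all-gene median there by −0.14.

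**Figure D3:**
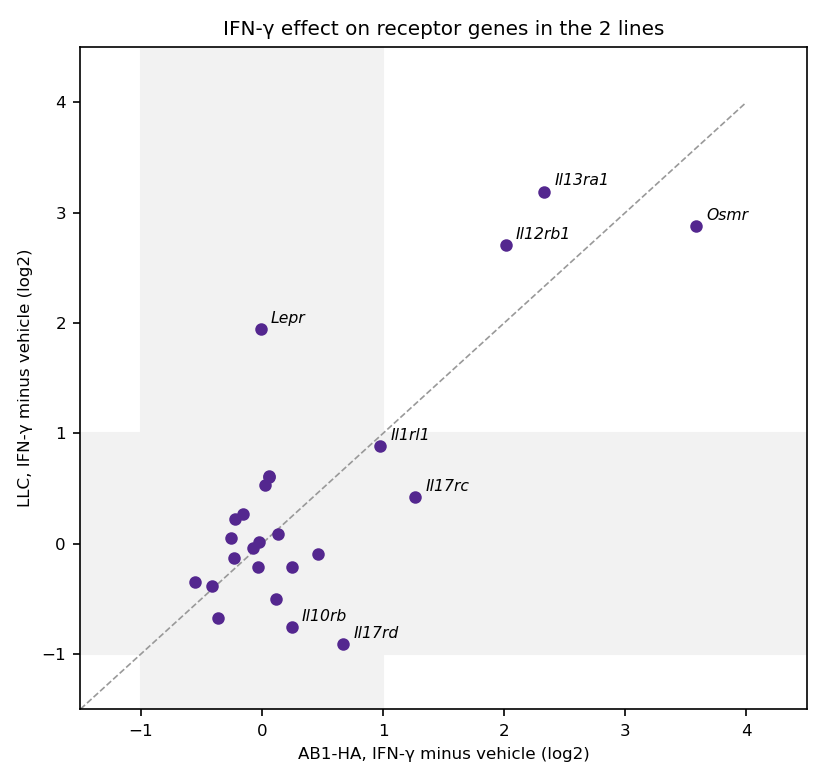
Log2 difference between the IFN-γ and vehicle arrays in AB1-HA (x axis) and LLC (y axis) for the 25 receptor genes detected on all 4 arrays, with the range within 2-fold shaded and equality dashed. Osmr, Il13ra1 and Il12rb1 lie past 2-fold in both lines, Il17rc in AB1-HA and Lepr in LLC, and Il17rd lies on opposite sides of 0.

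In the IL-6 family, Osmr was higher with IFN-γ in both lines. It encodes the chain that pairs with gp130 (Il6st) to receive oncostatin M, a macrophage and T cell cytokine, and with Il31ra to receive IL-31. Osmr had signals of 27.5 and 338 on the vehicle and IFN-γ arrays of AB1-HA and 522 and 3369.5 on those of LLC. The IFN-γ array was the higher in each line, and both LLC arrays lay above both AB1-HA arrays. Osmr was 12.0-fold higher with IFN-γ in AB1-HA (3.58 ± 0.25 log2) and 7.36-fold in LLC (2.88 ± 0.20). With normexp background correction, which adds 50 to each signal and so narrows differences of dim probes, the AB1-HA value was 1.92 and stayed past 2-fold. With vehicle, Osmr was 16.4-fold higher in LLC than in AB1-HA (4.04 ± 0.25), and with IFN-γ 10.1-fold (3.34 ± 0.20). The vehicle value was 2.17 under normexp. Osm, the gene of the ligand, was not detected on any array.

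The chains around Osmr differed less with IFN-γ. Il6st is the signalling chain shared by most of the family. It was at 811 and 1149.9 on the vehicle and IFN-γ arrays of AB1-HA and 1045 and 860.1 on those of LLC. All 4 signals lay close together, with IFN-γ differences of 0.46 ± 0.20 in AB1-HA and −0.09 ± 0.20 in LLC. Il6ra, which binds IL-6, was at 5551 and 4899 on the vehicle and IFN-γ arrays of AB1-HA and 4069.7 and 4166 on those of LLC and stayed within 2-fold in every comparison. Lifr, the LIF-binding chain, was not detected in AB1-HA (2.02 and 1.80) and was at 40.3 and 26.6 in LLC (vehicle, IFN-γ). Lifr was at least 4.21-fold higher in LLC with vehicle and at least 3.58-fold with IFN-γ, but its other 2 probes were not detected on any array. The line difference was 0.05 with the mean over its 3 probes (vehicle) and 0.55 under normexp (IFN-γ). Il31ra and Cntfr, the chains specific to IL-31 and CNTF, were not detected.

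Il11ra1, the IL-11-binding chain, was at 3494 and 3882 on the vehicle and IFN-γ arrays of AB1-HA and 3882 and 2407 on those of LLC, within 2-fold in every comparison. The gene table lists Il11ra2, a near-identical copy, as a synonym, so the copies are not told apart here. Il11ra1 also overlaps Ccl27a there. Its ligand Il11 was at 483, 347, 7935 and 9303, 14.2-fold higher in LLC with vehicle and 27.1-fold with IFN-γ. Il27ra, which pairs with Il6st to receive IL-27, was at 219 and 175 on the vehicle and IFN-γ arrays of AB1-HA and 24.3 and 13.4 on those of LLC. Both AB1-HA signals lay above both LLC signals, with an LLC minus AB1-HA difference of −3.38 ± 0.27 with vehicle and −3.69 ± 0.42 with IFN-γ. Under normexp these were −1.69 and −0.85, the latter short of 2-fold. Il27ra overlaps Palm3 in the gene table.

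Il12rb1 encodes the chain shared by the receptors of IL-12 and IL-23, known mostly from T and natural killer cells. Its signals were 1022 and 4233 on the vehicle and IFN-γ arrays of AB1-HA and 1814 and 10369.7 on those of LLC. The IFN-γ array was higher in each line, by 4.03-fold in AB1-HA (2.01 ± 0.20) and 6.52-fold in LLC (2.71 ± 0.20). A second probe read signals of 36.8, 135, 56.6 and 329, with differences of 1.84 and 2.73. The probes differed by 0.17 in AB1-HA and 0.02 in LLC. Il12rb2, the partner chain for IL-12, was at 15.4, 17.3, 13.4 and 16.7, within 2-fold in every comparison, and Il23r, the partner for IL-23, was not detected. Of the leukocyte markers, 8 of 11 were not detected on any array.

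In the IL-4 and IL-13 system, IFN-γ went with more Il13ra1 in both lines. Il13ra1 forms the type II receptor with Il4ra, and Il13ra2 is known as a decoy that binds IL-13. Il13ra1 was at 48.4 and 249 on the vehicle and IFN-γ arrays of AB1-HA and 11.7 and 93.7 on those of LLC. It was 5.02-fold higher with IFN-γ in AB1-HA (2.33 ± 0.21) and 9.12-fold in LLC (3.19 ± 0.41). The LLC vehicle spot lay just above background, and under normexp the LLC difference was 0.70, no longer 2-fold, while that of AB1-HA was 1.45. Both AB1-HA signals lay above the LLC signal of the same treatment, by 4.78-fold with vehicle and 2.63-fold with IFN-γ, and under normexp the log2 differences were −0.23 and −0.98, both short of 2-fold.

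Il13ra2 was at 78.3 and 60.5 on the vehicle and IFN-γ arrays of AB1-HA and 14.2 and 9.54 on those of LLC, lower in LLC by 6.38-fold with vehicle and 6.26-fold with IFN-γ. Its IFN-γ differences were −0.41 ± 0.21 in AB1-HA and −0.38 ± 0.64 in LLC, within 2-fold and, in LLC, within the spot error. The line differences were −0.32 and −0.57 under normexp, short of 2-fold. Il4ra, the chain that binds IL-4, was read differently by its 2 probes. The probe used was not detected in AB1-HA (6.66 and 4.91) and was at 1916 and 1075 in LLC, at least 200.3-fold higher there with vehicle and at least 145-fold with IFN-γ. The other probe, with the same RefSeq accession, was at 71.8, 90.5, 79.8 and 95.3, within 2-fold in every comparison. Under normexp the line differences of Il4ra by the first probe were 3.82 and 3.26 on the log2 scale. The files do not hold the probe sequences, so which part of the transcript each reads was not analysed here.

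The promoters of 3 of the receptors that were higher with IFN-γ in at least 1 line are shown here, with a contrasting one that holds a motif. Sequences are from RefSeq (GRCm38.p6) and run from 250 bases before to 50 after the gene start. Of the receptor genes, 35 matched, with 50 such windows, and Il12rb1 was not among them. The first 3 are Osmr (chr15:6874264-6874563, minus strand), Il13ra1 (chrX:36111858-36112157, plus strand) and Il17rc (chr6:113471205-113471504, plus strand). The last, Il1rap (chr16:26581455-26581754, plus strand), is the single receptor window with the IRF-type letters GAAANNGAAA, marked in capitals.
Osmr: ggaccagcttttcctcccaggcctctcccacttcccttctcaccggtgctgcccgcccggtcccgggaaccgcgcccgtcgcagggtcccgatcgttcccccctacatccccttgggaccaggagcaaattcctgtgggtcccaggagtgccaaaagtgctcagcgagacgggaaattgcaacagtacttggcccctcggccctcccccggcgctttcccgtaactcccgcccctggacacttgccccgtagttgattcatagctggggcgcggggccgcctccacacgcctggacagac
Il13ra1: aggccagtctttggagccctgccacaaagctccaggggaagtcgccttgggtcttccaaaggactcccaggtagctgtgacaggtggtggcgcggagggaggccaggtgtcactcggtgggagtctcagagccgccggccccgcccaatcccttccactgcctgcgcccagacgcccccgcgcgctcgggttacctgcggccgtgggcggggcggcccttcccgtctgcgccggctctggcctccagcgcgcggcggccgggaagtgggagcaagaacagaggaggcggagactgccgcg
Il17rc: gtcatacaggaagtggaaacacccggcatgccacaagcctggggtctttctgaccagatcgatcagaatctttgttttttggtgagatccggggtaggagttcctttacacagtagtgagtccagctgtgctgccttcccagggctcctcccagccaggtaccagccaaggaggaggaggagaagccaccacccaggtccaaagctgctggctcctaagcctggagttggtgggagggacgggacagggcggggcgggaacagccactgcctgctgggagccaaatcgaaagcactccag
Il1rap: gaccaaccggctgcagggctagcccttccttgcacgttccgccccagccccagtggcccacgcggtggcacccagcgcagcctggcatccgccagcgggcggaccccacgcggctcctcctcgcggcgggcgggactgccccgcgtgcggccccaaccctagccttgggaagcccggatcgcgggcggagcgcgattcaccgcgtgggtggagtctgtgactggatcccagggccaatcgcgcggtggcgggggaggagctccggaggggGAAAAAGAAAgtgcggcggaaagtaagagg

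The letters searched on both strands were TTCNNNGAA and TTCNNNNGAA, the forms bound by STAT dimers, and GAAANNGAAA with its reverse complement, the form bound by IRF proteins. None of them occurs in the Osmr, Il13ra1 or Il17rc windows. Among the 50 receptor windows, TTCNNNGAA occurred in 6, TTCNNNNGAA in 3 and GAAANNGAAA in 1, that is in 12%, 6% and 2%. Of 32851 mouse promoters of the same length the shares were 8.30%, 6.95% and 3.44%. Receptor genes with a match were Csf2rb2, Il18r1, Il1r2, Il1rap, Il20ra, Il31ra, Il7r and Prlr, 8 in all. The match in Il1rap began 21 bases into the transcript. By the probe used, Il1rap had IFN-γ differences of −0.02 ± 0.21 in AB1-HA and 0.01 ± 0.21 in LLC. Its other probe was at least 1.90-fold lower with IFN-γ in AB1-HA, a bound at a dim signal, and at −0.40 in LLC. A match is a description of letters and not a bound site, and sites outside these windows were not searched.

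In the IL-1 family, IFN-γ differences stayed within 2-fold for the signalling receptors by the probes used. Il1r1, which binds IL-1, was at 2146 and 1504 on the vehicle and IFN-γ arrays of AB1-HA and 7362 and 5056 on those of LLC. The IFN-γ array was the lower in each line (−0.55 ± 0.20 and −0.35 ± 0.20), and both LLC arrays lay above both AB1-HA arrays, by 2.96-fold with vehicle and 3.41-fold with IFN-γ. Il1rap, the accessory chain of the IL-1 and IL-33 receptors, was at 69.1 and 70.0 on the vehicle and IFN-γ arrays of AB1-HA and 149 and 132 on those of LLC by the probe used. By its other probe, designed to another RefSeq transcript, it was at 13.9, 7.23 (not detected), 139 and 92.4. The LLC minus AB1-HA difference with vehicle was 3.11 by that probe against 0.89 by the first, and the first passed 2-fold under cyclic loess (1.12). As background, Il1rap and Il1rl1 are each made in a membrane and a soluble form.

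Il1r2, the decoy receptor for IL-1, was not detected in AB1-HA (1.83 and 1.65) and was at 61.5 with vehicle and 26.9 with IFN-γ in LLC. In LLC its IFN-γ difference was −1.003 ± 0.27, right at the 2-fold line, and −0.28 under normexp. With vehicle it was at least 6.43-fold higher in LLC and with IFN-γ at least 3.62-fold. Under normexp these line differences were 0.59 and 0.69, short of 2-fold.

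Il1rl1 encodes ST2, the receptor of the alarmin IL-33. By the probe used it was at 2514 and 5090.3 on the vehicle and IFN-γ arrays of AB1-HA and 2388 and 3856 on those of LLC. The IFN-γ array was higher in both lines, by 1.97-fold (0.98 ± 0.20) and 1.84-fold (0.88 ± 0.20), just short of 2-fold. It passed 2-fold in AB1-HA under cyclic loess (1.06) and in LLC with the mean over its 3 probes (1.02). A second probe, for another RefSeq transcript, gave 0.63 and 0.84. A further and dim probe of that transcript gave −0.34 in AB1-HA and 1.36 in LLC, so its direction in AB1-HA was the other way. The ligand gene Il33 was lower with IFN-γ, at 979.6 and 202 on the vehicle and IFN-γ arrays of AB1-HA and 1265 and 701 on those of LLC, with differences of −2.31 and −0.66. Il18r1, the IL-18-binding chain, was not detected, while its partner Il18rap was at 225, 327, 878 and 1529.

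**Figure D4:**
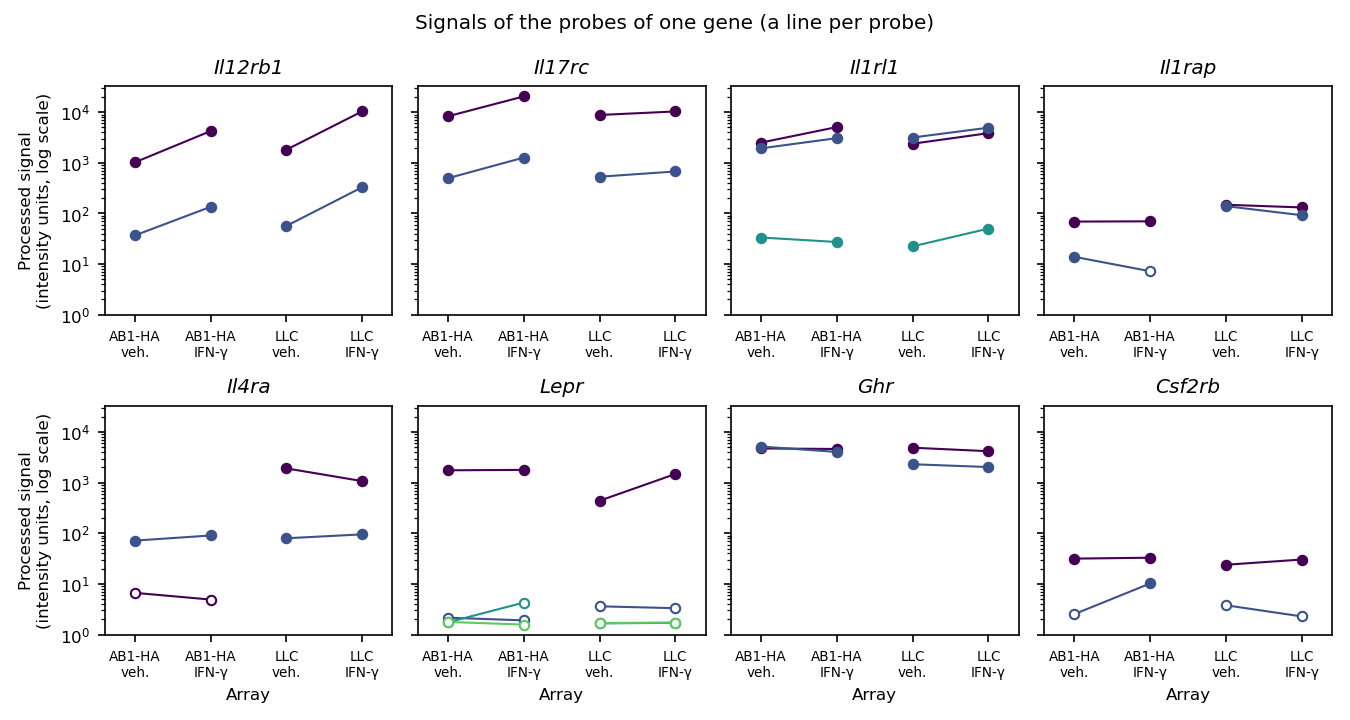
Processed signals (intensity units, log scale) of all probes of 8 receptor genes on the 4 arrays, a line per probe and open points where not well above background. The probes of Il12rb1 and Il17rc run in parallel, whereas those of Il4ra and Lepr differ in detection.

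Among the IL-17 receptors, Il17rc was higher with IFN-γ in AB1-HA. Il17rc and Il17ra form the receptor for IL-17A. Il17rc was at 8319 and 20508 on the vehicle and IFN-γ arrays of AB1-HA and 8812 and 10349 on those of LLC. The AB1-HA IFN-γ array stood above the other 3, at 2.40-fold over vehicle (1.26 ± 0.20), and in LLC the difference was 0.42 ± 0.20. The second probe gave 1.31 and 0.53. The difference between the lines' effects was −0.84, under 2-fold. Il17ra, the shared signalling chain, was at 208 and 182 on the vehicle and IFN-γ arrays of AB1-HA and 180.2 and 144 on those of LLC, within 2-fold throughout.

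Il17rd, also known as Sef and as an inhibitor of FGF signalling, was at 58.8 and 95.9 on the vehicle and IFN-γ arrays of AB1-HA and 2391 and 1113 on those of LLC. Both LLC arrays lay above both AB1-HA arrays, by 35.1-fold with vehicle (5.13 ± 0.21) and 11.8-fold with IFN-γ (3.56 ± 0.21), or 3.45 and 2.34 under normexp. With IFN-γ it was at 0.67 ± 0.21 in AB1-HA and −0.91 ± 0.20 in LLC, each under 2-fold, though the LLC value was −1.06 with array-median scaling. Il17re, which binds IL-17C, was at 9.36 and 11.7 in LLC, just above background, and not detected in AB1-HA. Il17rb, the IL-25-binding chain, was not detected by either of its probes.

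Il2rg, the chain shared by the receptors of IL-2, IL-4, IL-7, IL-9, IL-15 and IL-21 and otherwise known from lymphocytes, separated the lines. It was at 679 and 630.3 in AB1-HA (vehicle, IFN-γ) and at 1.56 and 1.63, not detected, in LLC. This made it at least 104-fold lower in LLC with vehicle and at least 76.5-fold with IFN-γ. Under normexp the line differences of Il2rg were −2.96 and −3.23 on the log2 scale. The IFN-γ difference in AB1-HA was −0.15 ± 0.20. The ligand gene Il7 was detected in AB1-HA too, at 1013 and 1688, without Il7r, its binding chain. In LLC Il7 was not detected with vehicle (1.81) and was near background with IFN-γ (10.4). Of the 11 leukocyte markers, Cd3e (359 and 356), Itgam (3242 and 3698) and Csf1r (644 and 519.7) were detected in AB1-HA and the other 8 were not.

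Il3ra, which binds IL-3, was higher in LLC. It was at 87.6 and 88.2 on the vehicle and IFN-γ arrays of AB1-HA and 1999 and 1513 on those of LLC. It was 19.7-fold higher in LLC with vehicle (4.30 ± 0.21) and 17.4-fold with IFN-γ (4.12 ± 0.21), or 3.06 and 2.87 under normexp, and within 2-fold between treatments. Its signalling partners Csf2rb and Csf2rb2 are near-identical copies and uncertain for cross-hybridisation. Csf2rb was at 31.6, 33.0, 23.9 and 30.3 and Csf2rb2 at 47.7, 51.1, 54.1 and 72.7, and the second probe of Csf2rb2 was not detected. The second Csf2rb probe was detected on the AB1-HA IFN-γ array alone, at 10.2. Crlf2, the TSLP-binding chain, was at 9554 and 10777 on the vehicle and IFN-γ arrays of AB1-HA and 2963 and 2752 on those of LLC. It was lower in LLC by 3.73-fold and 3.86-fold, and so was the ligand gene Tslp, at 337, 194, 15.7 and 23.5. The partner chain Il7r was not detected.

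In the class II group, Il10rb, a chain shared by the receptors of IL-10, IL-22 and the lambda interferons, was at 670.0 and 815 on the vehicle and IFN-γ arrays of AB1-HA and 1119.7 and 582 on those of LLC. It differed with IFN-γ by 0.24 ± 0.20 in AB1-HA and −0.75 ± 0.20 in LLC. Il20rb, the shared chain of the IL-20 receptors, was at 35.7 and 30.8 on the vehicle and IFN-γ arrays of AB1-HA and 167 and 152 on those of LLC. Both LLC arrays lay above both AB1-HA arrays, by 4.05-fold and 5.01-fold (1.06 and 0.93 on the log2 scale under normexp, the latter short of 2-fold). The binding chains Il10ra, Il20ra and Il22ra1 were not detected.

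The last group holds receptors for hormone-like cytokines. Lepr, the leptin receptor, was at 1756 and 1789 on the vehicle and IFN-γ arrays of AB1-HA and 439.6 and 1481 on those of LLC. The LLC vehicle array stood below the other 3. Lepr was 3.85-fold higher with IFN-γ in LLC (1.94 ± 0.20) and at −0.01 ± 0.20 in AB1-HA. The other 3 Lepr probes were not detected on any array, and with the mean over all 4 probes the LLC difference was 0.62. With vehicle it was 4.62-fold lower in LLC than in AB1-HA (−2.21 ± 0.20), or −0.56 with that mean. The gene table lists LEPROT, a neighbouring transcript, among the synonyms of Lepr, so the detected probe is uncertain as a measure of the receptor.

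Csf3r, the G-CSF receptor known from neutrophils, was detected on all 4 arrays at 38412, 35341, 34617 and 36602 by its single probe. The signals lay within 2-fold in every comparison. Csf3r overlaps Gm32908 in the gene table, and what its probe reads was not tested. Its ligand gene Csf3 was not detected, and of the myeloid markers Itgam and Csf1r were detected on all 4 arrays (Itgam at 3242, 3698, 3209 and 3198, Csf1r at 644, 519.7, 183 and 537), whereas Spi1, Tyrobp, Laptm5 and Adgre1 were not on any. Epor, the erythropoietin receptor, was at 390.4, 478, 873 and 661 and Ghr, the growth hormone receptor, at 4745, 4628, 4906 and 4182, with IFN-γ differences from −0.21 to 0.25. A second Ghr probe, for another RefSeq transcript, differed between the lines with vehicle by −1.37 (LLC minus AB1-HA), where the first differed by −0.16. Of the 14 receptor genes with several probes, 7 had probes that differed in detection. The share among the 5370 genes with several named probes was not computed, so the receptors are not set apart from it. Prlr, the prolactin receptor, was at 31.7, 33.8, 28.0 and 37.3, and its second probe was not detected.

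Between the lines with vehicle, 8 of 29 receptor genes with a value (25 measured on both arrays, 4 bounds) were past 2-fold on the LLC side (27.6%) and 6 on the AB1-HA side (20.7%). Among all 13836 genes with a value 16.4% were higher and 15.9% lower. Il4ra, Il17rd, Il3ra, Osmr, Il1r2, Lifr, Il20rb and Il1r1 were the higher ones, and Il2rg, Il27ra, Il13ra2, Il13ra1, Lepr and Crlf2 the lower. With IFN-γ, 9 of 30 were higher in LLC (30.0%, against 15.4% of 13879 genes) and 5 lower (16.7%, against 13.1%). Il12rb1 joined the higher side at 1.31, and Lepr left the lower side at −0.25. The vehicle and IFN-γ comparisons use different arrays of the same 2 lines.

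**Figure D5:**
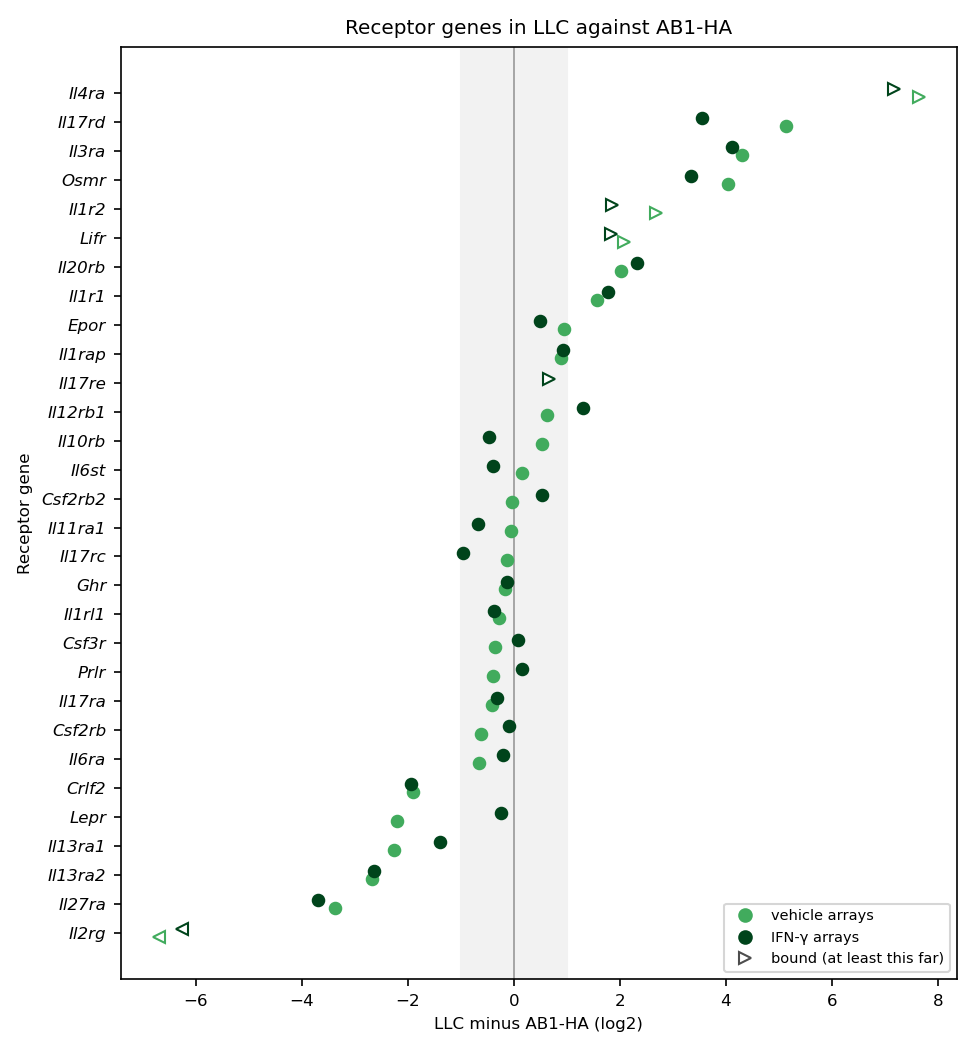
Log2 difference of LLC minus AB1-HA for the receptor genes with a value, on the vehicle arrays (light) and the IFN-γ arrays (dark), with open triangles for bounds and the range within 2-fold shaded. Il4ra, Il17rd, Il3ra and Osmr lie furthest toward LLC and Il2rg and Il27ra furthest toward AB1-HA on both pairs of arrays.

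The lines' IFN-γ effects were set against each other for the 25 receptor genes detected on all 4 arrays. Lepr had an effect at least 2-fold higher in LLC (1.96), and Il17rd at least 2-fold higher in AB1-HA (−1.58), 1 gene each way. Over 11985 genes 2.54% and 1.69% were past 2-fold in these directions. Il10rb was just short at −0.997. For Osmr the effects differed by −0.70, for Il12rb1 by 0.70 and for Il13ra1 by 0.86, each under 2-fold, and those of Osmr and Il13ra1 turned sign under normexp (0.71 and −0.75).

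The genes of the ligands were examined in the same way. Of 48 ligand and decoy genes with a named probe, 26 were detected on at least 1 array. Il1a, Il1b, Il1rn, Il2, Il4, Il10, Il12a, Il13, Il17b, Il25, Il20, Il21, Il23a, Il31, Osm, Csf2, Csf3, Epo, Gh, Prl, Lep and Thpo were not. With IFN-γ, 3 of 24 ligand genes with a value were past 2-fold on the higher side in AB1-HA (12.5%, against 2.98% of all genes) and 2 on the lower (8.33%, against 1.17%). In LLC 3 of 22 were higher (13.6%, against 3.58%) and none was lower (against 1.36%). In AB1-HA these were Il18bp (4.35), Il15 (2.50) and Il6 (1.15) on the higher side and Il33 and Il17c (at least 2.33-fold) on the lower. In LLC they were Il18bp (4.82), Il24 (1.74) and Il15 (at least 3.12-fold). Some of these calls rest on dim probes. Il17c was at 17.1 and 6.46 (not detected) in AB1-HA and at 4.09 (not detected) and 13.0 in LLC. In LLC it thus went the other way, at least 1.96-fold higher. On the vehicle and IFN-γ arrays of LLC, Il24 was at 9.72 and 28.4 and Il15 at 4.95 (not detected) and 20.6. The list medians were 0.04 and 0.69 with bounds counted in, and 0.15 and 0.41 without them, where the medians of all genes were −0.08 and −0.06.

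Lif, Cntf and Ctf1, which signal through Lifr or Il6st, were detected on all arrays within 2-fold between treatments, and Il27, Il34, Csf1 and Clcf1 were as well. Il17a was detected on the AB1-HA vehicle array alone, at 14.6. Il17f was detected on the AB1-HA IFN-γ array alone, at 8.42, and Il17d on all 4, at 84.0, 71.2, 69.6 and 101. Il3 was at 10.3, 12.5, 5.85 and 13.0 and Il22 at 28.6, 30.8, 18.3 and 30.0, and of the IL-20 receptor ligands Il19 was detected in AB1-HA alone, at 15.3 and 12.0. Ebi3, the partner of Il27, was at 16.7 and 11.3 in LLC. Il6 was at 13.5 and 30.8 in AB1-HA and not detected in LLC.

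Of the other receptors, 0 of 13 with a value passed 2-fold in either direction with IFN-γ in AB1-HA, where 4.15% of all genes did, and 1 of 12, Csf1r, did in LLC (1.74), where 4.94% did. Counts this small do not set the list apart from all genes. Among signalling genes 4 of 28 were at least 2-fold higher in AB1-HA (14.3%, against 2.98%) and 5 of 28 in LLC (17.9%, against 3.58%), with none lower. Stat2 (3.82 and 3.13), Stat3 (2.16 and 1.67), which carries the signal of the gp130 receptors, and the inhibitor Socs1 (2.67 and 2.49) were higher in both lines, and Stat4 was at least 3.91-fold higher in LLC. Jak1, Jak2, Tyk2, Stat6, Traf6 and Traf3ip2, the kinases, STAT and adaptors of the receptors above, stayed within 2-fold. The medians of the signalling list were 0.30 and 0.03.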

How the data were processed

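Processed intensity values were deposited by the authors as Agilent Feature Extraction output (version 10.7.1.1 per the file headers, 10.7 per the submitters' processing notes), 1 colour (Cy3), background-subtracted per spot and not normalized between arrays. A deposited table of log2 values, with no stated method, correlated with the scanner values scaled and centred per probe at 0.999 or above and had medians of 0.11, −0.08, −0.13 and 0.08 (AB1-HA vehicle, AB1-HA IFN-γ, LLC vehicle, LLC IFN-γ). It has the direction of the signal, its scaling and centring are inferred, and it served as an alternative.

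Signals were averaged over spots, leaving out control and outlier spots (166 to 201 per array; none saturated), taken as log2 and set relative to each array's 75th percentile (1380 to 1598). A probe was detected where at least 0.5 of its spots were marked well above background. Accessions were matched without version to RefSeq genes of GRCm38.p6 to take names but no coordinates, the arrays being annotated on mm9 (26581 of 39429 probes). The probe with the highest mean stood for a gene. Where 1 of 2 arrays did not detect it, a bound was taken against the higher of its own signal and the lowest detected signal. Genes had a value where a bound or difference could be had. The members and lists were chosen with earlier results of these data known. Named are the receptors detected on any array, ligands of these, and genes of the other lists at least 2-fold apart after IFN-γ. Some genes of these lists are not reported here. The calling code was run on simulated data with known changes away from the 2-fold cut. The dimmest detected genes were left out, and the noise was smaller than that of repeat spots at signals under 50. This checks the code and not how often a dim receptor is miscalled. Alternatives were array-median, quantile and cyclic loess scaling, normexp (offset 50, run on median in place of the planned mean signals, a change made once the columns were seen), the deposited table, a stricter background filter and none, the mean over probes, and outlier spots kept. Python 3.11.15, numpy 2.4.6, pandas 2.3.3, matplotlib 3.10.9, R 4.3.3 and limma 3.58.1 were used.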

Additional observations from a re-analysis of the deposited data

Results flagged for a closer look

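For 2 receptor genes the IFN-γ effect had opposite signs in the 2 lines and differed between them by at least 2-fold. The AB1-HA value of Lepr was close to 0 and within its spot error of 0.20, so its sign is not established. The sign was the same in both lines for 15 of 25 receptor genes and for 6712 of all 11985 genes, which are similar shares. How many of all genes meet both rules was not computed. Il17rd was at 0.67 in AB1-HA and −0.91 in LLC, a difference of −1.58 between the effects, with a range of −1.72 to −1.10 over the alternatives. Lepr was at −0.01 in AB1-HA and 1.94 in LLC, a difference of 1.96, which was 0.41 with the mean over its 4 probes. With 1 array per group, neither difference was tested.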

How the results depend on the processing

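Of 1240 receptor values recomputed under 9 alternatives, 1210 kept their side of 2-fold, 15 fell short of it (11 under normexp, 4 with the mean over probes), 15 came past it, and no called value turned sign. In AB1-HA, 1 receptor was lower without a background filter, where 0 were. In LLC, 2 were lower with array-median scaling and 0 under normexp, where 1 was. Between the vehicle arrays, 5 were higher in LLC when detection on both arrays was required and 10 lower without a filter, where 8 and 6 were. Between the IFN-γ arrays 3 were lower under normexp, where 5 were. For the effects, 5 were higher in LLC without a filter and 0 with the mean over probes (1 in the main setting), and 2 were higher in AB1-HA with array-median, quantile or cyclic loess scaling, with the deposited table and with outlier spots kept (1 in the main setting), Il10rb being added. The count of complete receptors fell from 9, 9, 12 and 12 to 4, 5, 6 and 7 on the AB1-HA vehicle, AB1-HA IFN-γ, LLC vehicle and LLC IFN-γ arrays at 10 times the lowest detected signal, a threshold added once the values were known. Normexp adds 50 to each signal, which narrows differences of dim probes; the other causes were not tested. No paired analysis was possible because each group holds 1 array and the groups share a single replicate number, and the 2 lines are compared here and not taken as replicates.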
